A study of Homo sapiens with 4 samples.

Results

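Asparagine synthetase, the enzymes of serine synthesis, the transcription factor ATF4 and most amino acid transporters and tRNA synthetases measured here were lower in liver cancer cells given a mimic of the microRNA miR-4730, while DDIT3, the message for CHOP, was higher. ASNS alone passed the test over all genes. These genes belong to the integrated stress response and the amino acid supply it serves. The list holds 39 genes named by symbol. Of these, 38 had a probe set annotated to the symbol or an older name of the same gene, among 17687 named genes on the array, and all 38 were bright enough to be among the 12381 genes tested. Expression of MARS1, the methionine tRNA synthetase, was not analysed here, and MARS1 enters the promoter search alone.

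Both cell lines, Li-7 and HEP-G2, are established human liver cancer lines. Each received either the miR-4730 mimic at 3 nM or a negative control oligonucleotide by lipid transfection 24 h after seeding, and total RNA was hybridised to 1 Affymetrix array per line and treatment. The 4 groups are therefore the Li-7 control, the Li-7 mimic, the HEP-G2 control and the HEP-G2 mimic, with no replicate array. Li-7 was grown in RPMI-1640 and HEP-G2 in DMEM, both with 10% serum, so line and medium, whose amino acid contents differ, cannot be told apart.

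In the integrated stress response, kinases such as EIF2AK3 (PERK, which senses unfolded protein in the endoplasmic reticulum) and EIF2AK4 (GCN2, which senses uncharged tRNA) phosphorylate the alpha subunit of the initiation factor eIF2. General translation then slows, while translation of the ATF4 message increases. ATF4 pairs with C/EBP-family proteins at composite C/EBP-ATF response elements near genes for amino acid synthesis, amino acid import and tRNA charging, and this programme is widely used by tumour cells of the liver and elsewhere to keep up their supply of amino acids.

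The mature miR-4730 sequence is shown because it is the molecule the mimic copies, with the seed (bases 2 to 8) in capitals. RefSeq places it at chr17:80419427-80419449 on the plus strand of GRCh38.p14, and 1 mature miRNA in that table, miR-4730 itself, carries this seed.
hsa-miR-4730: cUGGCGGAgcccauuccaugcca

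Promoter windows from RefSeq (GRCh38.p14), 250 bases before to 50 bases after each gene start, were searched for the core TGATGNAA of the C/EBP-ATF response element on both strands. Of the 39 members, 33 had a window and 13 of these held a match (39.39%), against 512 of 14250 measured genes with a window (3.59%). By window the count was 13 of 50 (26.0%), against 1270 of all 35116 windows of that length (3.62%). The list holds kinds of genes described above as lying near such elements, so this comparison is not an independent test of it. The stretches below, 5′ to 3′ on the gene's strand with the match in capitals, are those of the 6 members whose match lay wholly before the gene start, followed by SLC1A4, whose match began 7 bases before it and ran across it.
ASNS: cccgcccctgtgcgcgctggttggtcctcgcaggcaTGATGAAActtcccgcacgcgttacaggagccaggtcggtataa
SLC1A5: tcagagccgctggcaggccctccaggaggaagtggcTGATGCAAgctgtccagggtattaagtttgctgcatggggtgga
AARS1: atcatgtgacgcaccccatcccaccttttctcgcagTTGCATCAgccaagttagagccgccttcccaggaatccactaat
CHAC1: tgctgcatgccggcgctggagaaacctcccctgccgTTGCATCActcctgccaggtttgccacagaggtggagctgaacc
CEBPG: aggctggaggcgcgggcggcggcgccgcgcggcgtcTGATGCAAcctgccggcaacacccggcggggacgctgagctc
GARS1: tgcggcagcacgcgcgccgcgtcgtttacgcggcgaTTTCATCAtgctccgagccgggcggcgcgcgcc
SLC1A4: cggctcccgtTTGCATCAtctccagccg

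The ASNS stretch is chr7:97872433-97872512 (minus strand), and its match begins 68 bases before the gene start. The SLC1A5 stretch is chr19:46784868-46784947 (minus strand, 97 bases before), and the AARS1 stretch is chr16:70289650-70289729 (minus strand, 187 bases before). CHAC1 is shown at chr15:40953226-40953305 (plus strand, 209 bases before), CEBPG at chr19:33374035-33374112 (plus strand, 42 bases before), GARS1 at chr7:30594809-30594877 (plus strand, 33 bases before) and SLC1A4 at chr2:64989382-64989409 (plus strand). ASNS, SLC1A5 and CEBPG carry the letters on the gene's own strand, and AARS1, CHAC1, GARS1 and SLC1A4 on the opposite strand. The other members with a match were CARS1, MARS1, NARS1, SLC3A2, SLC7A1 and TARS1, each within 37 bases of the gene start. A match describes these letters in this window and is not a measured binding site.

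Values are the deposited ones, read as log2 units, so a difference of 1 is 2-fold, and a difference is always mimic minus control. The 95th percentile of 612 negative control probe sets, from 7.99 to 8.72 over the arrays, served as a mark, and a change has an uncertain size where either value lies under it. Of the 38 measured members, 28 lay above it on all arrays, 9 on some, and CHAC1 on none. HMGA1, which the series names as the target of miR-4730, went from 14.93 to 10.91 in Li-7 and from 14.79 to 11.61 in HEP-G2 with the mimic. Of 13 measured hepatocyte markers, 12 lay above the mark on both HEP-G2 arrays, but 0 did so on the Li-7 control array and 2 on the Li-7 mimic array (APOH and SERPINA1), so the liver identity in the label of Li-7 is not borne out by these markers. Of 11 markers of blood, endothelial, stromal and other cells, CD68 and LYZ lay above it on every array.

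**Figure D1:**
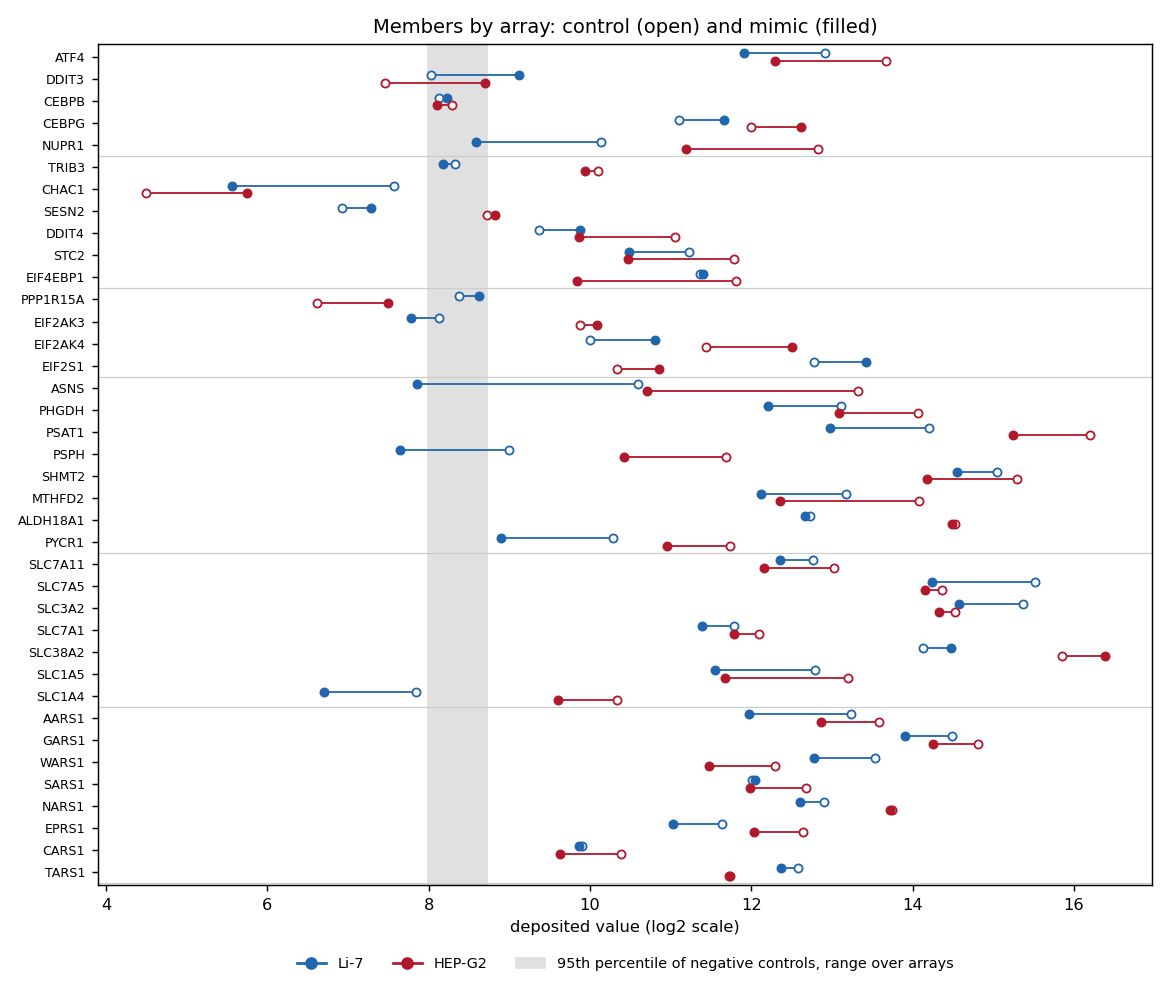
Deposited value (log2 scale, horizontal axis) of each of the 38 measured members on the 4 arrays, with open circles for control and filled circles for mimic, blue for Li-7 and red for HEP-G2, grouped by role. The grey band spans the 95th percentile of the negative controls over the arrays, 7.99 to 8.72. ASNS shows the longest lines, -2.75 (Li-7) and -2.61 (HEP-G2).

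Among the regulators, the central transcription factor ATF4 was lower and DDIT3 (CHOP, a C/EBP-family factor linked to cell death under lasting stress) higher with the mimic in both lines. ATF4 stood at 12.91 in the Li-7 control and 11.91 in the Li-7 mimic, against 13.67 and 12.29 in the HEP-G2 pair. Both mimic values were under both control values. The differences of -1.0 and -1.39 had a mean of -1.19 (SE 0.25, 2 lines), which did not pass limma's test, adjusted by Benjamini-Hochberg over all 12381 genes tested (adjusted p = 0.0907). In RNA of a whole culture, fewer cells with a message and less of it per cell cannot be told apart.

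DDIT3 stood at 8.03 and 9.12 in Li-7, against 7.46 and 8.70 in HEP-G2, control before mimic. Both mimic values were above both control values, which lay under the negative control mark. With each control set at that mark, DDIT3 was at least 1.31-fold higher in Li-7 and at least 1.28-fold higher in HEP-G2. The mean difference of 1.17 (SE 0.25) did not pass either (limma adjusted p = 0.0893). The ATF4 and DDIT3 messages thus differed in sign in both lines.

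NUPR1, a small stress-induced nuclear protein, went from 10.13 to 8.59 in Li-7 and from 12.83 to 11.19 in HEP-G2. The lines started 2.70 apart and gave nearly equal differences of -1.54 and -1.63. Their mean of -1.59 (SE 0.24) is 3.01-fold in size and came nearest to the threshold among members that did not pass (limma adjusted p = 0.0598). CEBPG, which forms pairs with ATF4, was higher, from 11.10 to 11.66 in Li-7 and from 11.99 to 12.61 in HEP-G2 (mean difference 0.59, limma adjusted p = 0.250). CEBPB, another C/EBP factor, differed by 0.10 (Li-7) and -0.19 (HEP-G2) and lay under the negative control mark on all arrays but the Li-7 mimic.

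The stress effectors, genes that classically rise when ATF4 or CHOP is active, went several ways. STC2, a secreted glycoprotein, went from 11.23 to 10.48 in Li-7 and from 11.79 to 10.47 in HEP-G2 (mean difference -1.03, SE 0.27, limma adjusted p = 0.124). TRIB3, a pseudokinase that feeds back on ATF4 and CHOP, differed by -0.15 (Li-7) and -0.16 (HEP-G2). SESN2, a leucine-binding inhibitor of mTORC1, differed by 0.36 and 0.10, with both Li-7 values under the negative control mark. TRIB3 and SESN2 thus stayed within 1.28-fold of their controls.

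EIF4EBP1, which holds back the cap-binding factor eIF4E, stood at 11.36 and 11.40 in Li-7, against 11.81 and 9.84 in HEP-G2, so that the HEP-G2 mimic array was the low one, 3.93-fold under its control. DDIT4 (REDD1, an inhibitor of mTORC1) went from 9.37 to 9.88 in Li-7 and from 11.05 to 9.86 in HEP-G2. Its mimic values were alike and its control values were not. CHAC1, a glutathione-degrading enzyme, stood at 7.57 and 5.56 in Li-7, against 4.49 and 5.74 in HEP-G2, all under the negative control mark. Whether the lines differ in these responses was not tested, since each line has 1 array per treatment.

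Of the sensors, the factor they act on and its phosphatase subunit, 3 of 4 genes were higher with the mimic in each line and EIF2AK3 had opposite signs. None passed limma's test (adjusted p from 0.127 to 0.924). EIF2AK4 went from 10.00 to 10.80 in Li-7 and from 11.44 to 12.50 in HEP-G2 (mean difference 0.93, SE 0.25, limma adjusted p = 0.127). EIF2S1, the alpha subunit of eIF2, went from 12.78 to 13.42 and from 10.33 to 10.85, which is 1.56-fold and 1.43-fold higher. PPP1R15A (GADD34, which directs dephosphorylation of eIF2) differed by 0.24 and 0.87, and was above the negative control mark on the Li-7 mimic array alone. EIF2AK3 differed by -0.35 and 0.22, with both Li-7 values under that mark. Phosphorylation, through which this step is controlled, was not measured.

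Amino acid synthesis showed the lowest values as a group. All 8 enzymes were lower in both lines, or 7 after quantile normalization or cyclic loess, where ALDH18A1 was the exception. The median of their mean differences was -1.09, against 0.03 over all genes tested. ASNS, which makes asparagine from aspartate and glutamine, fell in the test over all genes. It stood at 10.59 in the Li-7 control and 7.85 in the Li-7 mimic, against 13.32 and 10.71 in the HEP-G2 pair. The HEP-G2 mimic array thus came down to the level of the Li-7 control, and the Li-7 mimic value lay under the negative control mark. The difference was -2.75 in Li-7, at least 6.06-fold with the mimic array set at that mark, and -2.61 in HEP-G2, 6.11-fold. They had a mean of -2.68 (SE 0.24, 2 lines, limma adjusted p = 0.0241). In each line 0.1% of genes tested had a lower difference. The size of this change did not depend on the model, but the call did. An unmoderated t statistic gave an adjusted p of 0.589, and limma without the cell line term gave an adjusted p of 1. Of all 12381 genes, the t statistic called 0 lower and 1 higher, and limma without that term called 0 in either direction. These settings could call hardly any gene, so the lost call says little about ASNS itself.

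The serine pathway was lower at each of its 3 steps. PHGDH, which opens it by oxidising 3-phosphoglycerate, went from 13.11 to 12.21 in Li-7 and from 14.07 to 13.09 in HEP-G2. PSAT1, the transaminase that follows, went from 14.20 to 12.98 and from 16.20 to 15.24. PSPH, the phosphatase that releases serine, went from 8.99 to 7.64 and from 11.69 to 10.42, with the Li-7 mimic value under the negative control mark. With that array set at the mark, PSPH was at least 2.0-fold lower in Li-7. PSPH has a closely related pseudogene, whose messages its probes may also read. Mean differences were -0.94 for PHGDH, -1.09 for PSAT1 and -1.31 for PSPH (SEs 0.24 to 0.25), with limma adjusted p of 0.125, 0.102 and 0.0764, so none of the 3 passed.

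The mitochondrial enzymes that take carbon from serine onto folate had lower values in both lines too, but neither passed. MTHFD2 went from 13.17 to 12.12 in Li-7 and from 14.08 to 12.35 in HEP-G2 (mean difference -1.39, SE 0.28, limma adjusted p = 0.0844). SHMT2 went from 15.05 to 14.55 and from 15.29 to 14.18 (mean difference -0.80, SE 0.27, limma adjusted p = 0.183). Whether the lines differ in these responses, or in those of the transporters below, was not tested. Proline synthesis divided between its enzymes. ALDH18A1, which makes the shared precursor of proline and ornithine, stood at 12.73 and 12.66 in Li-7, against 14.53 and 14.49 in HEP-G2, the smallest differences of the 8. PYCR1, which completes proline, went from 10.29 to 8.90 and from 11.74 to 10.95 (mean difference -1.08, SE 0.27, limma adjusted p = 0.117).

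**Figure D2:**
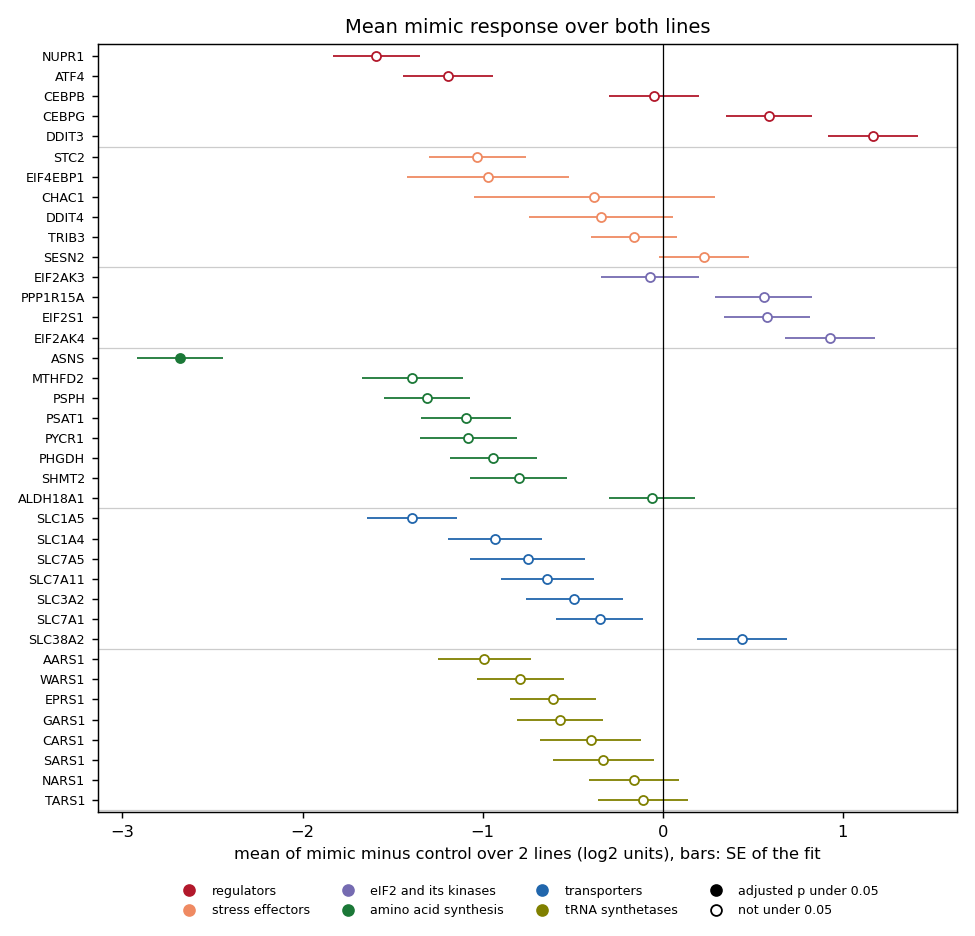
Mean of mimic minus control over the 2 lines (log2 units, horizontal axis) for each member, grouped and coloured by role, with the SE of the limma fit as bars and filled circles for an adjusted p under 0.05. ASNS at -2.68 is the filled circle, all amino acid synthesis enzymes and tRNA synthetases lie left of 0 (ALDH18A1 moves to 0.03 after cyclic loess), and DDIT3 at 1.17 lies farthest right.

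Of 7 amino acid transporters, 6 had a lower value with the mimic in each line under every scaling tried, and the median mean difference was -0.64. SLC1A5 (ASCT2, which takes up glutamine) went from 12.79 to 11.55 in Li-7 and from 13.20 to 11.67 in HEP-G2 (mean difference -1.39, SE 0.25, limma adjusted p = 0.0738). Both mimic values were under both control values. Its relative SLC1A4 (ASCT1, for alanine, serine and cysteine) went from 7.84 to 6.70 in Li-7, under the negative control mark on both arrays, and from 10.33 to 9.60 in HEP-G2.

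The pair that forms the large neutral amino acid exchanger had lower values in both lines, and neither gene passed (limma adjusted p = 0.261 for SLC7A5 and 0.372 for SLC3A2). SLC7A5 (LAT1, the transport subunit) went from 15.52 to 14.24 in Li-7 and from 14.37 to 14.16 in HEP-G2. SLC3A2 (CD98, the heavy chain that carries it to the membrane) went from 15.37 to 14.58 and from 14.52 to 14.33. For both genes the Li-7 control array was the high one and the other 3 lay close together. SLC7A11 (xCT, the cystine importer that also pairs with CD98) stood at -0.40 (Li-7) and -0.87 (HEP-G2), and SLC7A1 (CAT1, for cationic amino acids) stood at -0.39 and -0.30.

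SLC38A2 (SNAT2, a sodium-coupled importer of small neutral amino acids) was the transporter that was higher, from 14.13 to 14.48 in Li-7 and from 15.85 to 16.38 in HEP-G2 (mean difference 0.44, limma adjusted p = 0.377). No transporter passed the test over all genes.

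Cytosolic tRNA synthetases, which charge tRNAs with their amino acids, were lower by less. Of 8 measured, 7 were lower in both lines, or 5 after quantile normalization or cyclic loess, where NARS1 and TARS1 no longer were. None of the 8 passed limma's test, with a median mean difference of -0.49 and a range from -0.99 to -0.11. An unadjusted limma p under 0.05 was found for 3 of the 8, all lower, against 19.5% of all genes tested in either direction. AARS1, for alanine, went from 13.23 to 11.97 in Li-7 and from 13.58 to 12.86 in HEP-G2 (mean difference -0.99, SE 0.26, limma adjusted p = 0.127). WARS1, for tryptophan, went from 13.54 to 12.78 and from 12.29 to 11.47. EPRS1, for glutamate and proline, and GARS1, for glycine, gave nearly the same difference in each line, -0.61 and -0.60 for EPRS1 and -0.58 and -0.56 for GARS1. CARS1 and SARS1, for cysteine and serine, were lower in HEP-G2 (-0.76 and -0.70) with -0.04 and 0.04 in Li-7, and NARS1 and TARS1, for asparagine and threonine, stayed within 0.30 of their controls.

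Counted together, 25 of the 38 measured members (65.8%) had lower mimic values in both lines, against 31.0% of all genes tested, and 22 (57.9%) after quantile normalization or cyclic loess. Another 7 (18.4%) were higher in both, against 34.1%, and 6 (15.8%) had opposite signs, against 34.9%. The median mean difference was -0.53, with line medians of -0.45 (Li-7) and -0.65 (HEP-G2). In the limma test over all genes with Benjamini-Hochberg adjustment, ASNS alone was called lower (1 of 38, 2.63%, against 0.339% of all genes) and 0 were called higher (against 0.0808%). At an unadjusted p under 0.05 the test counted 16 lower and 3 higher, together 19 of the 38 members, against 19.5% of all genes. Samples within a group were not replicated, so a gene's own part in these p values is the disagreement between the lines. That part has 1 residual degree of freedom, and limma weighs it with a spread pooled over all genes (5.85 prior degrees of freedom). For most members, most of the spread behind the p value thus comes from other genes. For CHAC1, EIF4EBP1 and DDIT4 (SEs 0.67, 0.45 and 0.4), the disagreement between the lines weighs more.

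In Li-7 taken alone, 12 members (31.6%) were at least 2-fold lower, against 4.12% of genes tested, and DDIT3 alone at least 2-fold higher (2.63%, against 3.72%). In HEP-G2, 10 (26.3%) were at least 2-fold lower, against 6.28%, and 3 (7.89%) at least 2-fold higher, against 5.77%, namely DDIT3, CHAC1 and EIF2AK4. The share of higher members thus lay near that of all genes in both lines. ATF4, NUPR1, ASNS, PSPH, MTHFD2 and SLC1A5 were at least 2-fold lower in both lines (15.8%, against 1.76%), with ATF4 just inside that limit in Li-7 and PSAT1, at -0.96 in HEP-G2, just outside it, and DDIT3 at least 2-fold higher in both (2.63%, against 1.03%). With controls set at the negative control mark, DDIT3 would not reach 2-fold in either line. Each such count compares 1 array with 1 array and has no test.

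Across the 38 members, the differences in Li-7 and HEP-G2 had a Pearson correlation of 0.57, against 0.47 across all 12381 genes. Without CHAC1, which lay under the negative control mark on every array, it was 0.74 across 37 members. Such dim genes were not taken out of the 12381, so 0.57 is the value to set beside 0.47. The lines share no array, but the genes of one array are not independent, and the values are a description.

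**Figure D3:**
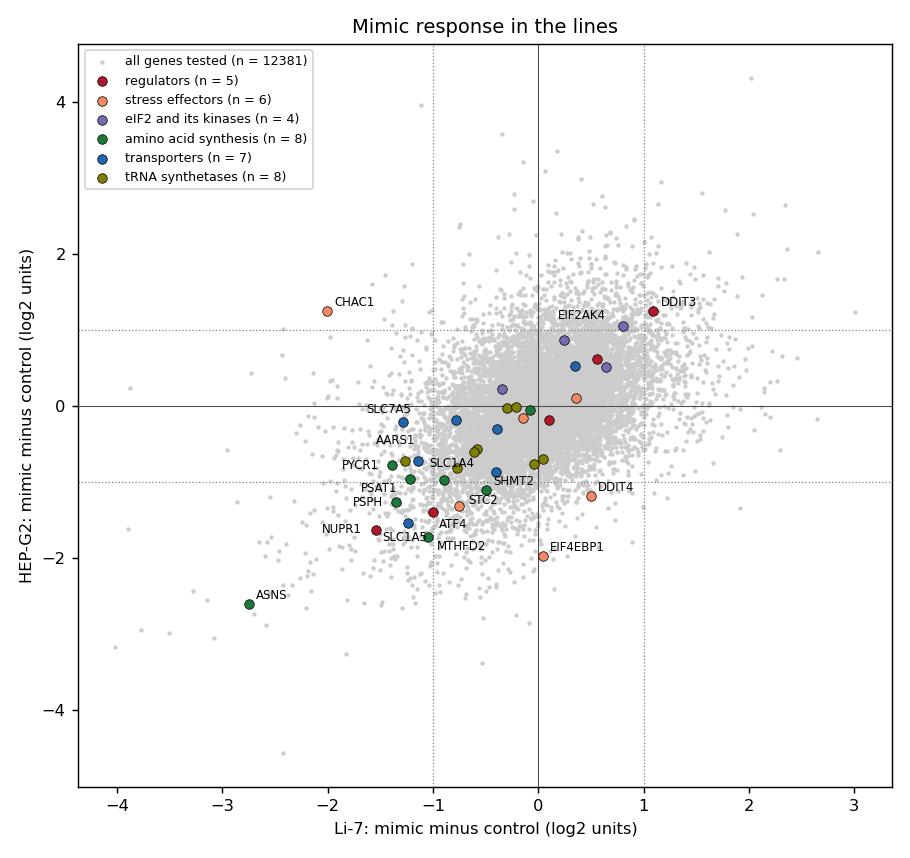
Mimic minus control in Li-7 (horizontal) against HEP-G2 (vertical), both in log2 units, for 12381 genes tested (grey) and the 38 members (coloured by role), with dotted lines at 2-fold and names for members past it in either line. Most members lie in the lower left, where 25 of 38 are found, DDIT3 in the upper right, and CHAC1, DDIT4 and EIF4EBP1 away from the diagonal.

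The number of calls depended on how dim genes and the spread were treated. With genes limited to those above the mean negative control mark, 12 of 34 members (35.3%) were called lower by limma, against 4.95% of 6949 genes, and 2 (5.88%) higher, against 3.41%. The 12 were ASNS, ATF4, NUPR1, STC2, PHGDH, PSAT1, PSPH, MTHFD2, PYCR1, SLC1A4, SLC1A5 and AARS1, and the 2 were DDIT3 and EIF2AK4. With an intensity trend in the limma fit, 9 of 38 (23.7%) were called lower, against 2.04% of all genes, and 0 higher, against 1.28%. After quantile normalization 6 (15.8%) were called lower, against 2.20%, and 1 (2.63%) higher, against 1.55%. Calls thus became more frequent among all genes too.

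Other genes of the pathway gave no call. Of 49 further genes listed for eIF2 and its exchange factor, ATF4 targets, amino acid synthesis, transport and the remaining cytosolic synthetases, 39 were tested, and 23 of these (59.0%, against 31.0% of all genes tested) were lower in both lines. Their median mean difference was -0.29. By limma with Benjamini-Hochberg adjustment 0 passed. At an unadjusted p under 0.05, 9 of the 39 were lower and 1 higher, together 25.6%. Over all 12381 genes tested, 1202 were lower and 1207 higher at that limit, together 19.5%. The largest mean differences were those of YARS1, the tyrosine tRNA synthetase (-1.26, limma adjusted p = 0.0803), ALDH1L2, a mitochondrial folate enzyme (-1.16, limma adjusted p = 0.0896), and SLC43A1 and SLC6A9, carriers of large neutral amino acids and of glycine (-0.99 and -0.93).

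YARS1 went from 11.97 to 10.75 in Li-7 and from 12.45 to 11.15 in HEP-G2, a larger difference than that of any synthetase among the members except AARS1 in Li-7. ALDH1L2 went from 10.84 to 9.75 in HEP-G2 and from 6.59 to 5.37 in Li-7, where it lay under the negative control mark. SLC43A1 and SLC6A9 also lay under that mark on both Li-7 arrays, so their sizes there are uncertain. The subunits of eIF2B, the exchange factor that phosphorylated eIF2 blocks, differed little. EIF2B1 to EIF2B5 had mean differences of -0.29, -0.22, -0.32, 0.33 and 0.13 in that order.

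The response was also read against the promoter letters shown above. The 12 measured members with TGATGNAA in a window had a median mean difference of -0.44, and 10 of them (83.3%) were lower in both lines. Of the 20 members with a window but no match, 10 were lower in both, with a median of -0.24. NUPR1, PSPH, PYCR1, EIF4EBP1, SHMT2 and SLC7A11 have no window and are in neither group. Their mean differences ran from -1.59 to -0.64, and all but EIF4EBP1 were lower in both lines. Whether the response goes with the letters was not tested. Across all 303 genes tested that hold the letters, the median was 0.04 and 29.0% were lower in both lines, against 31.8% of 9865 genes with a window and no match. Among the members printed above, ASNS, SLC1A5, AARS1, SLC1A4 and GARS1 were lower in both lines, CEBPG was higher in both, and CHAC1 had opposite signs. ATF4, DDIT3, PSAT1, PHGDH and MTHFD2 have windows without these letters.

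The lines differed in their levels of many members whatever the treatment. In the same limma fit, 16 of 38 members (42.1%) were higher in HEP-G2, against 20.7% of all genes, and 4 (10.5%) lower, against 24.3%. Amino acid synthesis stood out by count, with 6 of 8 enzymes higher in HEP-G2 and 0 lower. ASNS was 2.79 higher (SE 0.24, 6.94-fold, adjusted p = 0.000132), PSPH 2.74, PSAT1 2.13, ALDH18A1 1.81, PYCR1 1.75 and PHGDH 0.91, while MTHFD2 (0.57) and SHMT2 (-0.07, or 0.06 after median centring) did not pass. Median centring moved the median line difference of all genes from -0.03 to 0.10.

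NUPR1 (2.65), TRIB3 (1.77), SESN2 (1.67), the kinases EIF2AK3 (2.03) and EIF2AK4 (1.57), and the transporters SLC1A4 (2.69) and SLC38A2 (1.81) were also higher in HEP-G2 in that test. CEBPG (0.92), EPRS1 (1.00) and NARS1 (0.99) completed the genes higher there. The sizes are uncertain for EIF2AK3, SLC1A4 and SESN2, which lay under the negative control mark on both Li-7 arrays. They are also uncertain for TRIB3 (under it on the Li-7 control) and for ASNS and PSPH (under it on the Li-7 mimic). ATF4 itself differed by 0.57 (SE 0.25), which did not pass the limma test (adjusted p = 0.113).

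Lower in HEP-G2 were EIF2S1 (-2.52, SE 0.24, 5.72-fold), PPP1R15A (-1.44), WARS1 (-1.28) and TARS1 (-0.75). The size is uncertain for PPP1R15A, which lay under the negative control mark on both HEP-G2 arrays and on the Li-7 control. The call of TARS1 was lost after median centring, after cyclic loess and without a filter (limma adjusted p from 0.0534 to 0.0781). SLC7A5 and SLC3A2 were lower in HEP-G2 on the control arrays (-1.15 and -0.85) and did not pass as line differences (-0.61 and -0.55).

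**Figure D4:**
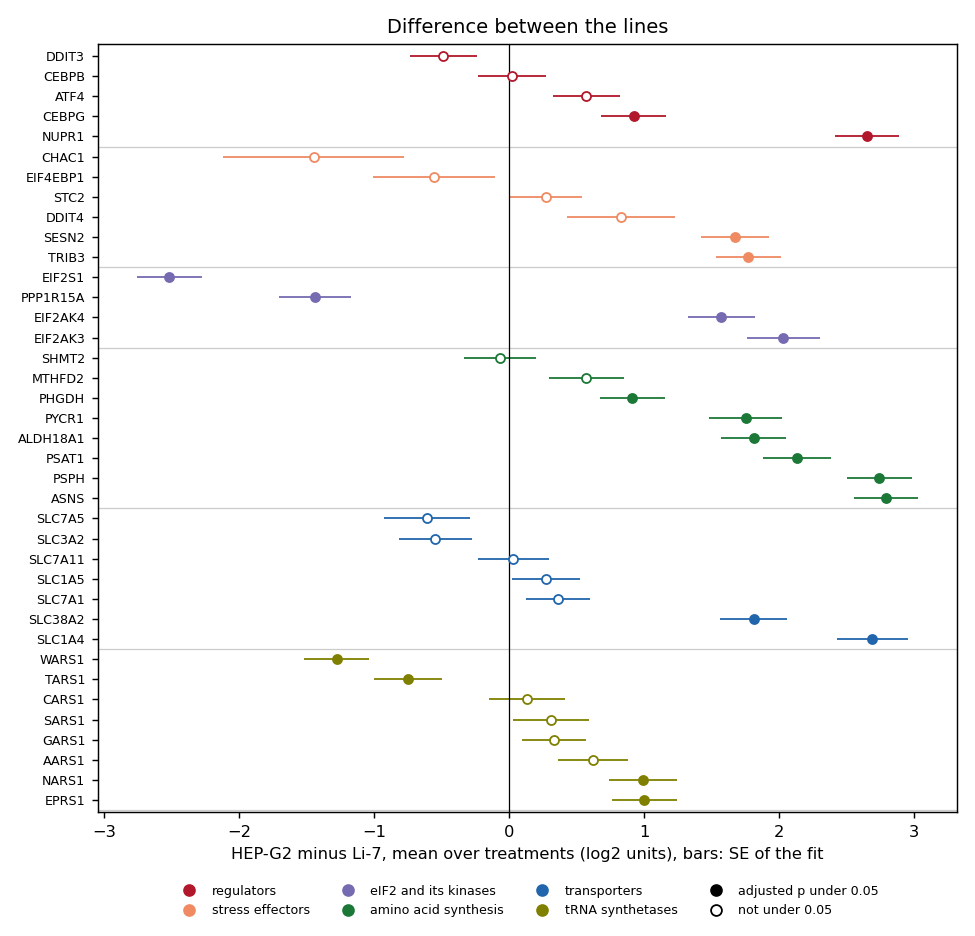
HEP-G2 minus Li-7, as the mean over treatments (log2 units, horizontal axis), for each member, grouped and coloured by role, with the SE of the limma fit as bars and filled circles for an adjusted p under 0.05. Filled circles on the right are the 16 members higher in HEP-G2, with ASNS at 2.79 farthest out, and the 4 on the left are EIF2S1, PPP1R15A, WARS1 and TARS1.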

How the data were processed

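Total RNA (6 µg, labelled with biotin) of the 4 groups was measured on 1 Affymetrix array each. The table deposited by the authors gives 1 value per probe set and array, read as log2 values from their range. Per the submitters' processing notes, Affymetrix Expression Console and Transcriptome Analysis Console were used. For background correction, normalization, log base, versions and genome build the sources used here give nothing, so a fold is on the deposited scale.

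Of 24351 probe sets, 17709 carried 1 gene name, 0 several and 6642 none, and symbols were updated through RefSeq (GRCh38.p14). The brightest probe set stood for a gene, and the 12381 of 17687 genes whose mean reached the 30th percentile (4.90) were tested. The deposited values were fitted in R 4.3.3 with limma 3.58.1 on cell line and treatment (1 residual degree of freedom, 5.85 prior), with Benjamini-Hochberg adjustment at 0.05 over all genes. The number of arrays limits the precision. The procedure was tested on simulated data that followed its own additive model and fitted spread. That simulation held no response differing between the lines, so it does not test departures from the model.

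The members, lists and tests were chosen with earlier results of these data known. All members are named, besides HMGA1, further pathway genes that passed the mimic test (0 did) and the 4 of them with the largest mean difference. Others were named after their values were seen. Alternatives were other normalizations, filters, variance models and fold limits.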

Additional observations from a re-analysis of the deposited data

Results flagged for a closer look

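Members whose mimic response had opposite signs in Li-7 and HEP-G2 are given here. With 1 array per line and treatment, this contrast between the lines was not tested. CHAC1 stood at -2.01 (Li-7) and 1.25 (HEP-G2), DDIT4 at 0.50 and -1.19, and EIF4EBP1 at 0.04 and -1.98. EIF2AK3 stood at -0.35 and 0.22, CEBPB at 0.10 and -0.19, and SARS1 at 0.04 and -0.70. On every array CHAC1 was dimmer than the 95th percentile of the negative controls, and DDIT4, EIF4EBP1 and SARS1 lay above it on every array. These 6 are 15.8% of the 38 members, against 34.9% of all genes tested.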

How the results depend on the processing

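The members called lower with the mimic numbered 1 as reported (2.63%, against 0.339% of all genes tested) and 6 after quantile normalization (15.8%, against 2.20%). They numbered 7 with a filter at the median gene (18.9%, against 2.70%) and 12 with a filter at the negative control percentile (35.3%, against 4.95%). With an intensity trend they numbered 9 (23.7%, against 2.04%). With cell line left out, or with an ordinary t statistic, 0 members and 0 of all genes were called lower. Those called higher numbered 0 as reported (against 0.0808% of all genes tested) and 1 after quantile normalization (2.63%, against 1.55%). They numbered 1 with the filter at the median gene (2.70%, against 1.44%) and 2 with that at the negative control percentile (5.88%, against 3.41%). Of the further pathway genes, 0 of 39 were called lower as reported and 2 of 39 after quantile normalization. With the stricter filters 2 of 35 and 2 of 31 were called lower, and with the trend 1 of 39. The shares of all genes called lower in these settings are those given above. At 1.5-fold in place of 2-fold, 17 members were lower and 3 higher in Li-7, and 20 lower and 5 higher in HEP-G2. All genes were not counted at that limit, so these counts have no share to be read against. Members called higher and lower in HEP-G2 numbered 10 and 2 with treatment left out, against 1766 and 2025 of 12381 genes. With an ordinary t statistic they numbered 0 and 0, against 1 and 0 over all genes. Cyclic loess turned the mean responses of CEBPB (0.00) and ALDH18A1 (0.03), and median centring the line difference of SHMT2 (0.06). Differences within a line moved by less than the spread in the limma fit (0.263) under all 3 normalizations. ASNS kept a mean response from -2.68 to -2.60 in every setting run. Members lower in both lines numbered 25 as deposited, 22 after quantile normalization, 24 after median centring and 22 after cyclic loess. Signal near the negative controls limits the 10 members not above their 95th percentile on every array, namely CHAC1 on all 4, DDIT3 on both controls, and CEBPB, TRIB3, SESN2, PPP1R15A, EIF2AK3, ASNS, PSPH and SLC1A4 on some. The reported model already pairs mimic with control within a line, and leaving cell line out is its unpaired form.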

Other observations

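GDF15, a secreted stress cytokine of the wider pathway, chosen after its values were seen, went from 11.12 to 9.14 in Li-7 and from 12.89 to 13.80 in HEP-G2, the same pair of signs as CHAC1 but above the negative control percentile on all arrays. Enzymes that make cysteine from homocysteine were lower in both lines, CBS at -0.49 (Li-7) and -0.83 (HEP-G2), and CTH at -1.0 and -0.57, with CTH above that percentile on 1 array. Neither passed the limma test (adjusted p = 0.222 and 0.177).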
